A study of Mus musculus with 12 samples.

Results

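Insulin-driven glucose uptake by fat cells depends on a small set of genes, and 8 of them are described here across all libraries: 4 glucose transporter genes (Slc2a4, Slc2a1, Slc2a8 and Slc2a3) and 4 genes of the Glut4 storage vesicle and its release (Sort1, Lnpep, Aspscr1 and Tbc1d4). They were taken by symbol from the gene count table, which holds 54532 genes, and all 8 were found. The level of 1 member, Slc2a3, was too low to be tested, so 7 entered the fit.

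The cells were mouse 3T3-L1, a fibroblast-like preadipocyte line of wild-type genotype that turns into adipocytes when given a hormone cocktail, and RNA was sequenced on day 6 in 4 groups of 3 libraries. The first induced group received the cocktail with quercetin, the second received it with luteolin, and the third received the cocktail alone (DMI). The fourth group, labelled untreated, is the uninduced reference. DMI stands for dexamethasone at 1 µM, the phosphodiesterase inhibitor IBMX at 0.5 mM and insulin at 10 µg/ml, given until day 2 and followed by insulin alone for 2 days and then by serum medium. Quercetin and luteolin are plant flavonoids, and quercetin carries a hydroxyl group on its central ring that luteolin lacks. The labels give neither their doses nor their exposure times, so the 2 compounds cannot be set at matched doses. Untreated samples carry the same protocol text on induction as the others, and only their titles and treatment labels set them apart. The labels do not state whether replicates are separate cultures, and the spread behind each p-value may be technical.

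Glut4, the product of Slc2a4, is the insulin-responsive glucose transporter of fat and muscle. In unstimulated adipocytes it is held inside the cell in storage vesicles, which sortilin (Sort1) helps to form and which also carry the aminopeptidase IRAP (Lnpep). The tether TUG (Aspscr1) retains these vesicles, and insulin, through the kinase Akt, switches off the Rab GTPase-activating protein AS160 (Tbc1d4) so that they move to the surface. Glut1 (Slc2a1) supplies basal glucose uptake in most cells, Glut8 (Slc2a8) is a mainly intracellular transporter, and Glut3 (Slc2a3) is best known from neurons.

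Total counts per library ran from 14522182 to 19436796. Levels below are in CPM, each gene's count relative to the library's total, with the total adjusted by TMM, a correction for library composition. The summed level of 10 adipocyte markers was 3604 to 8487 CPM with quercetin, 6746 to 16636 CPM with luteolin, 7638 to 28300 CPM with DMI and 707 to 731 CPM in untreated cells. The third library of each induced group had the lowest sum of its group, and in the third DMI and luteolin libraries mitochondrial transcripts took 2.87% and 2.91% of counts, against 4.28% to 4.73% in the other libraries of those groups. In the third quercetin library that share was 4.65%, the highest of its group, and in untreated cells it was 1.85% to 1.91%, below every induced library. The 8 preadipocyte and fibroblast markers summed to 19039 to 21846 CPM with quercetin, 15240 to 20775 CPM with luteolin, 19110 to 26745 CPM with DMI and 38480 to 40194 CPM in untreated cells. The collagen genes Col1a1 and Col3a1 held most of this sum. They, Dlk1, Pdgfrb, Thy1 and Ly6a were lower in every induced library than in any untreated one. Pdgfra was not, at 728 to 821 CPM with quercetin, 612 to 678 with luteolin, 589 to 689 with DMI and 577 to 604 in untreated cells. Cd34 was at most 0.91 CPM. Markers of other cells were low: a muscle list summed to 4.85 to 13.5 CPM with quercetin, 6.59 to 15.5 with luteolin, 9.48 to 29.8 with DMI and 2.60 to 4.66 in untreated cells. Its defining Myod1, Myog and Ckm had 0 counts in every library. Des held most of that sum in the induced libraries. It had 3.19 to 10.7 CPM with quercetin, 5.52 to 14.1 with luteolin, 8.43 to 25.9 with DMI and 1.27 to 2.24 in untreated cells. The macrophage, endothelial and epithelial markers reached 1.42 to 3.22 CPM, with Adgre1 at 0 and Cd68 at 0.546 to 2.18 CPM. Neuron markers reached 11.4 to 33.6 CPM, most of it from Map2. The part of these markers in the results was not tested. In these bulk samples fewer cells of a type and less RNA per cell cannot be told apart.

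Promoter sequences are shown for 3 members because their levels over the 12 libraries followed different courses: Tbc1d4 and Lnpep were higher in DMI than in untreated cells, and Slc2a1 was not called different. Each is 300 bases from RefSeq (GRCm38.p6), from 250 bases before to 50 after the gene's start as RefSeq gives it, read 5′ to 3′ on the gene's strand. That start equals the one in the count table for Tbc1d4 and lies downstream of it by 34 bases for Slc2a1 and by 561 bases for Lnpep, whose window is therefore inside the gene as the table bounds it. Capitals mark matches on either strand to any of 5 motifs, and no matches of different motifs overlap. These are the CCAAT box, spelled as named, the Sp1-type motif GGGCGG, the nuclear receptor half-site AGGTCA, the C/EBP motif TTGCNNAA and the E-box motif CACGTG.
Tbc1d4 promoter, chr14:101609142-101609441, minus strand: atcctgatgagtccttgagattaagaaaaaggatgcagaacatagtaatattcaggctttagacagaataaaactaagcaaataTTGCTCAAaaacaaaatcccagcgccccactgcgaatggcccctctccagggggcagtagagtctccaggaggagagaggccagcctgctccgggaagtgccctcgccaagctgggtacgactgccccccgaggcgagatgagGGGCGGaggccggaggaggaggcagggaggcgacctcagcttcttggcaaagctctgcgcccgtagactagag
Lnpep promoter, chr17:17624440-17624739, minus strand: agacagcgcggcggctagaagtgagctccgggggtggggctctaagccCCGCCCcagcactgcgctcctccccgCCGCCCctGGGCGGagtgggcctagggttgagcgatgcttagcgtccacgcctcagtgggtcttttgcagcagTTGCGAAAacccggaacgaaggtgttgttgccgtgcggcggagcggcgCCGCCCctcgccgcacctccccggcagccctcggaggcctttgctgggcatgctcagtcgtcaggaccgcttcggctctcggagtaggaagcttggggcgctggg
Slc2a1 promoter, chr4:119108495-119108794, plus strand: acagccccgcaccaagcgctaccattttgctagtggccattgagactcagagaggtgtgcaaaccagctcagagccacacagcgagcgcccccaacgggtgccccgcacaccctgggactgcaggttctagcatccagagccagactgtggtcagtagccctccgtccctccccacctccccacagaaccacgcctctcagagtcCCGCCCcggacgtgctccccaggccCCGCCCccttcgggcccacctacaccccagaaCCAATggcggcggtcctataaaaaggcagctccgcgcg
The 3 promoters are a chosen part of the 5 members with an entry, and the matches of the others, Slc2a8 and Aspscr1, are not reported here. The C/EBP letters occur once in the Tbc1d4 and once in the Lnpep promoter and are found in 10.8% of 32817 mouse promoters of the same length. The Sp1-type motif occurs 1 time in Tbc1d4, 4 times in Lnpep and 2 times in Slc2a1, and 35.6% of promoters hold at least 1. Slc2a1 also holds a CCAAT box, as do 37.4% of promoters. The half-site and the E-box, held by 16.3% and 7.1% of promoters, have no match in these 3 windows.

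**Figure D1:**
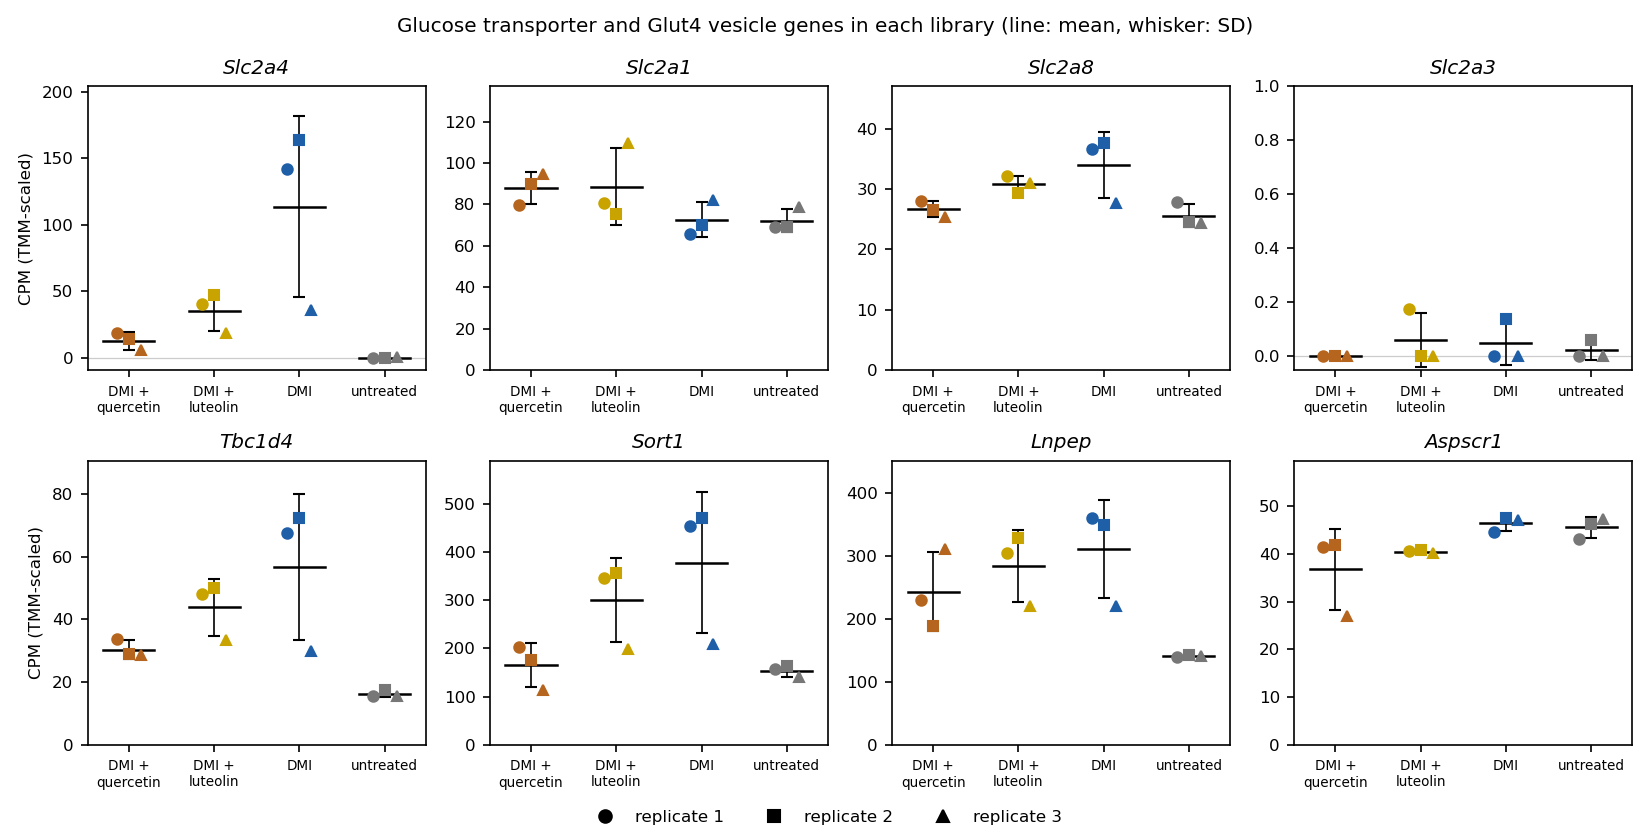
Level of each member in every library, as TMM-scaled CPM, by group; points are libraries (circle, square and triangle for replicates 1, 2 and 3), the line is the mean and the whisker the SD (n = 3). Slc2a4 spans 5.65 to 18.8 CPM with quercetin, 18.3 to 47.0 with luteolin, 36.0 to 164 with DMI and 0 to 0.423 in untreated cells. Over all libraries Slc2a1 spans 65.5 to 110 CPM and Aspscr1 27.0 to 47.6 CPM.

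Slc2a4 moved most among the members. It lies on chromosome 11 at 69942539 to 69948188 on the minus strand (ENSMUSG00000018566, GRCm38). Its level was 18.8, 13.9 and 5.65 CPM with quercetin, 40.6, 47.0 and 18.3 CPM with luteolin, 142, 164 and 36.0 CPM with DMI, and 0, 0.0596 and 0.423 CPM in untreated cells. Every induced library lay above every untreated one, and every quercetin library lay below every DMI library. The luteolin libraries overlapped both neighbours: the third luteolin library was below the first quercetin library, and the first and second luteolin libraries were above the third DMI library. Group means were 12.8 ± 6.66 CPM with quercetin, 35.3 ± 15.0 with luteolin, 114 ± 68.3 with DMI and 0.161 ± 0.229 in untreated cells (SD, n = 3 each). The untreated mean rests on 8 reads in all, 0, 1 and 7 per library.

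Induction raised Slc2a4 672-fold over untreated cells (log2 fold change 9.39 with a standard error, SE, of 0.93; edgeR's quasi-likelihood test gave an adjusted p of 0.000126 over all genes), which placed it 28 from the top of 14855 genes ordered by fold change. The size of this fold depends on the few untreated reads: with 1 library left out the log2 fold change ran from 8.84 to 11.57, the highest without untreated replicate 3. With the compounds added, Slc2a4 still stood above untreated cells, by a log2 fold change of 6.24 with quercetin (SE 0.95, adjusted p = 0.00224 by edgeR) and 7.70 with luteolin (SE 0.93, adjusted p = 0.000341 by edgeR). With 1 library left out these ran from 5.69 to 8.44 with quercetin and from 7.15 to 9.89 with luteolin, again highest without untreated replicate 3.

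Quercetin lowered Slc2a4 to 11.2% of its DMI mean (log2 fold change -3.15, SE 0.59, 95% interval -4.42 to -1.87, adjusted p = 0.0443 by edgeR), an 8.87-fold fall. The call ended without DMI replicates 1 or 2, luteolin replicates 1 or 2, quercetin replicates 2 or 3, or any untreated replicate. It also ended with only the 6 libraries of the pair (adjusted p from 0.0661 to 0.21 over these fits, by edgeR). The call held without DMI replicate 3 (adjusted p = 0.00138 by edgeR) and with the replicate number as a block (adjusted p = 0.000578 by edgeR). It held by DESeq2 too (adjusted p = 0.00459). Slc2a4 also passed for quercetin against DMI in the authors' deposited table (log2 fold change -3.14, adjusted p = 0.00334). With any 1 library left out the log2 fold change kept between -3.57 and -2.78. With luteolin Slc2a4 stood at 31.0% of its DMI mean and did not pass (log2 fold change -1.69, SE 0.55, 95% interval -2.88 to -0.49, adjusted p = 0.617 by edgeR). It passed with no low-count filter and without DMI replicate 3 (log2 fold change -2.11 and adjusted p = 0.0406 by edgeR in that second case). Between the compounds, luteolin over quercetin gave a log2 fold change of 1.46 (95% interval 0.24 to 2.68, adjusted p = 0.541 by edgeR), so a difference between them was not shown, although it was called with no low-count filter.

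Among the glucose transporters, Slc2a1, which lies on chromosome 4 at 119108711 to 119137983 (ENSMUSG00000028645), behaved differently. Its level was 79.5, 89.9 and 94.6 CPM with quercetin, 80.5, 75.4 and 110 CPM with luteolin, 65.5, 70.2 and 81.9 CPM with DMI, and 68.9, 69.0 and 78.7 CPM in untreated cells. The DMI and untreated libraries interleaved, and the quercetin and DMI groups overlapped only in that the third DMI library stood above the first quercetin library. No comparison passed: DMI over untreated gave a log2 fold change of 0.01 (95% interval -0.32 to 0.34, adjusted p = 0.979), quercetin over DMI 0.28 (-0.05 to 0.61, adjusted p = 0.315) and luteolin over DMI 0.29 (-0.04 to 0.62, adjusted p = 0.87), all by edgeR.

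Slc2a8, on chromosome 2 at 32972990 to 32982083 (ENSMUSG00000026791), had 28.1, 26.6 and 25.3 CPM with quercetin, 32.1, 29.3 and 31.0 CPM with luteolin, 36.6, 37.7 and 27.6 CPM with DMI, and 27.8, 24.6 and 24.4 CPM in untreated cells. Its first and second DMI libraries were the highest of all, and the third fell among the untreated ones. It rose 1.33-fold with DMI over untreated cells (log2 fold change 0.41, SE 0.13, edgeR adjusted p = 0.0399). That call ended without DMI replicates 1 or 2 or any single luteolin or untreated replicate, and with no low-count filter (adjusted p from 0.0521 to 0.177 by edgeR). Quercetin over DMI stood at -0.35 (95% interval -0.64 to -0.06, adjusted p = 0.167 by edgeR), and without DMI replicate 3 it was called lower (log2 fold change -0.47, adjusted p = 0.0199 by edgeR).

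Slc2a3, on chromosome 6 at 122727809 to 122801640 (ENSMUSG00000003153), was at or near 0. It had no read in any quercetin library, 3, 0 and 0 reads with luteolin, 0, 2 and 0 with DMI, and 0, 1 and 0 in untreated cells. A count of 0 allows up to 3 reads, 0.152 to 0.206 CPM depending on the library, so no group difference was detectable at this depth.

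Set against each other per kilobase of gene length, the transporters changed their order with induction. In untreated cells Slc2a1 led at 20.6 CPM per kilobase, ahead of Slc2a8 at 7.97 and Slc2a4 at 0.0463, with no overlap between them over the libraries. With DMI alone the mean order was Slc2a4 at 32.7, Slc2a1 at 20.7 and Slc2a8 at 10.6 CPM per kilobase, but in the third DMI library Slc2a1 stood above Slc2a4. With either compound Slc2a1 led again, at 25.1 CPM per kilobase with quercetin and 25.2 with luteolin, while Slc2a4 stood at 3.67 with quercetin, below Slc2a8, and at 10.1 with luteolin, beside Slc2a8 at 9.60. Slc2a4 was above Slc2a8 in the first and second luteolin libraries and below it in the third.

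As a share of the 4 transporters' counts per kilobase, Slc2a4 made up 14.7%, 10.5% and 4.45% with quercetin, 26.1%, 30.6% and 11.4% with luteolin, 57.5%, 59.7% and 24.4% with DMI, and 0%, 0.0627% and 0.403% in untreated cells. Such a ratio within a library does not depend on scaling between libraries. All 3 quercetin libraries lay below all 3 DMI libraries, at means of 9.88% and 47.2%. An exact two-sided permutation test gave p = 0.1 for quercetin against DMI, the smallest p that 3 against 3 libraries can give, p = 0.3 for luteolin against DMI and p = 0.2 for luteolin against quercetin.

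**Figure D2:**
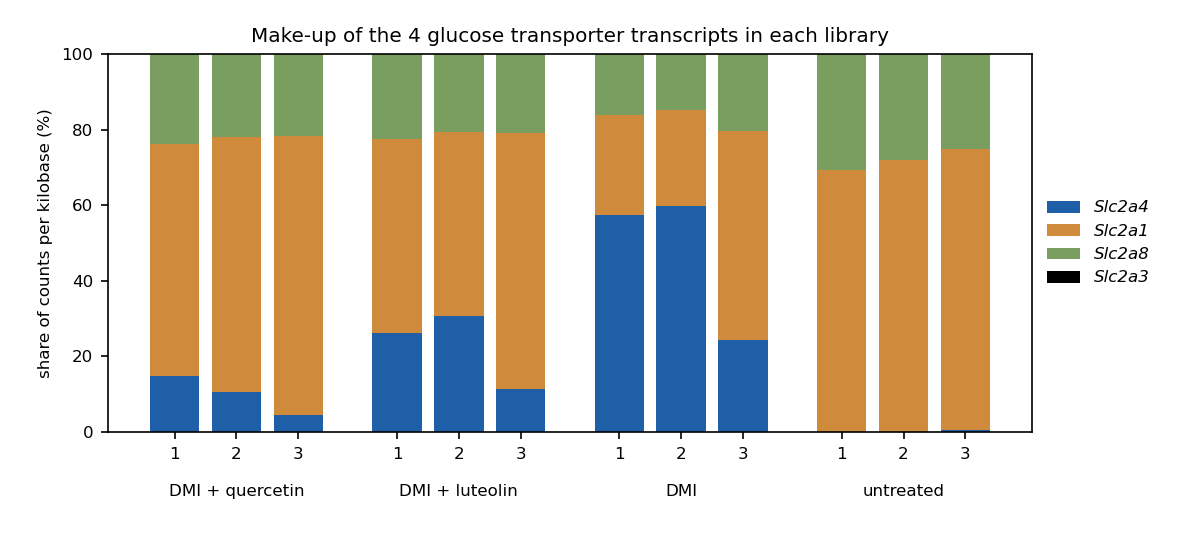
Share of counts per kilobase (%) taken by each of the 4 glucose transporter genes in every library, 1 stacked bar per library, with replicates 1 to 3 of each group side by side. Slc2a4 fills 24.4% to 59.7% of the bars with DMI, 11.4% to 30.6% with luteolin, 4.45% to 14.7% with quercetin and at most 0.403% in untreated cells, where Slc2a1 fills 69.4% to 74.4%.

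Slc2a4 was also set against the summed CPM of the 10 adipocyte markers in the same library. The log2 difference was -8.81, -9.20 and -9.29 with quercetin, -8.51, -8.47 and -8.52 with luteolin, and -7.47, -7.43 and -7.73 with DMI. The 3 groups did not overlap, and the third DMI library, low in Slc2a4 itself, stood beside the other DMI libraries on this scale. Slc2a4 per unit of summed marker transcript was lower than with DMI by a log2 difference of -1.55 with quercetin and -0.95 with luteolin. On this scale luteolin was 0.60 above quercetin. The part of the adipocyte marker level in the differences of the other members was not tested. Lpl, the lipoprotein lipase gene, made up 33.0% to 65.9% of the marker sum in the induced libraries, most in the third quercetin library. In untreated cells it made up 93.1% to 96.0%. The markers did not fall alike. Retn, another of the 10, spanned 64.95 to 388.7 CPM with DMI, 40.59 to 121.5 with luteolin and 16.02 to 42.95 with quercetin. Lpl spanned 3172 to 9341 CPM, 3293 to 6742 CPM and 2376 to 3616 CPM in the same groups. A lower level against the sum does not show a larger fall than that of each marker. Slc2a4 was not tested against single markers. With Lpl left out of the sum, a choice made after its share was seen, the log2 differences were -1.18 for quercetin over DMI, -0.78 for luteolin over DMI and 0.39 for luteolin over quercetin. Each of these 3 contrasts of Slc2a4 had p = 0.1 by an exact two-sided permutation test, the smallest the design allows, so none could reach 0.05.

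**Figure D3:**
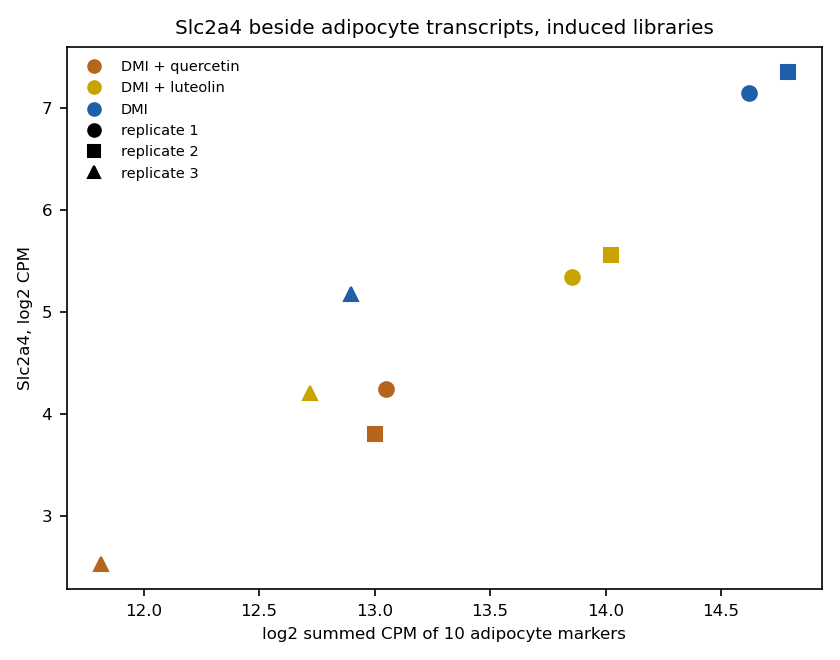
Slc2a4 (log2 CPM) against the log2 of the summed CPM of 10 adipocyte markers in the 9 induced libraries, coloured by group with replicate shapes. At a similar marker sum (12.7 to 13.1 on the log2 scale) the third DMI library lies at 5.17, the third luteolin library at 4.20 and the first and second quercetin libraries at 4.24 and 3.80.

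Among the vesicle genes Sort1 had the highest mean level per kilobase with quercetin (21.8 CPM), luteolin (39.7), DMI (50.0) and in untreated cells (20.3), and Tbc1d4 the lowest, at 3.96, 5.71, 7.37 and 2.12 CPM per kilobase in the same groups. In the third quercetin library Sort1, at 15.1 CPM per kilobase, stood below Lnpep. Sort1, on chromosome 3 at 108284082 to 108361511 (ENSMUSG00000068747), had 204, 176 and 115 CPM with quercetin, 346, 356 and 200 CPM with luteolin, 454, 472 and 209 CPM with DMI, and 158, 164 and 140 CPM in untreated cells. DMI and luteolin libraries all lay above the untreated ones, whereas quercetin libraries lay on both sides of them. Sort1 rose 2.46-fold with DMI over untreated cells (log2 fold change 1.30, SE 0.31, edgeR adjusted p = 0.00977) and 1.95-fold with luteolin over untreated cells (0.96, SE 0.31, adjusted p = 0.0451 by edgeR). The luteolin call ended without DMI replicate 1, luteolin replicates 1 or 2, quercetin replicate 2 or any untreated replicate (adjusted p from 0.052 to 0.164 by edgeR).

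With quercetin Sort1 stood at 0.10 over untreated cells (95% interval -0.56 to 0.76, adjusted p = 0.879 by edgeR), and at -1.20 over DMI (95% interval -1.87 to -0.53, adjusted p = 0.0753 by edgeR), its 3 libraries all below the 3 DMI libraries. Without DMI replicate 3 the second difference passed (log2 fold change -1.49, adjusted p = 0.00326 by edgeR), as it did by DESeq2, with no low-count filter and with the replicate number as a block. In the authors' deposited table, Sort1 passed 0.05 for quercetin against DMI (log2 fold change -1.19, adjusted p = 0.0208). The authors' deposited table also passed Tbc1d4 for quercetin against untreated (adjusted p = 2.63e-05) and Slc2a8 for luteolin against untreated (adjusted p = 0.036), which edgeR did not call, and it did not pass Tbc1d4 for quercetin against DMI (adjusted p = 0.14). Luteolin over quercetin was 0.87 (95% interval 0.20 to 1.53, adjusted p = 0.541 by edgeR) and was called with no low-count filter.

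Lnpep, on chromosome 17 at 17521410 to 17625050 (ENSMUSG00000023845), had 230, 189 and 311 CPM with quercetin, 305, 328 and 220 CPM with luteolin, 361, 350 and 221 CPM with DMI, and 140, 143 and 141 CPM in untreated cells. Every induced library was above every untreated one. The third quercetin library was the highest of its group for Lnpep and Slc2a1 and the lowest for Slc2a4, Slc2a8, Sort1, Aspscr1 and Tbc1d4. Lnpep rose 2.20-fold with DMI (log2 fold change 1.14, SE 0.22, adjusted p = 0.00363), 2.01-fold with luteolin (1.01, SE 0.22, adjusted p = 0.00903) and 1.72-fold with quercetin (0.78, SE 0.22, adjusted p = 0.0449), each over untreated cells by edgeR. The quercetin call ended without DMI replicates 1 or 2, luteolin replicates 1 or 2, quercetin replicate 1 or any untreated replicate (adjusted p from 0.0508 to 0.143 by edgeR). Against DMI, Lnpep stood at -0.35 with quercetin (95% interval -0.83 to 0.13, adjusted p = 0.38 by edgeR) and -0.13 with luteolin (-0.60 to 0.35, adjusted p = 0.998 by edgeR).

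Aspscr1, on chromosome 11 at 120672973 to 120709447 (ENSMUSG00000025142), had 41.4, 42.0 and 27.0 CPM with quercetin, 40.5, 40.8 and 40.1 CPM with luteolin, 44.7, 47.6 and 47.0 CPM with DMI, and 43.1, 46.3 and 47.4 CPM in untreated cells. The libraries with either compound lay below all DMI and untreated libraries, by a narrow margin except for the third quercetin library. No comparison passed: DMI over untreated was 0.03 (95% interval -0.30 to 0.35, adjusted p = 0.917), quercetin over DMI -0.33 (-0.66 to -0.01, adjusted p = 0.224) and luteolin over DMI -0.20 (-0.52 to 0.13, adjusted p = 0.957), all by edgeR.

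Tbc1d4, on chromosome 14 at 101442360 to 101609191 (ENSMUSG00000033083), had 33.8, 28.9 and 28.5 CPM with quercetin, 48.0, 50.0 and 33.5 CPM with luteolin, 67.4, 72.5 and 29.9 CPM with DMI, and 15.6, 17.6 and 15.6 CPM in untreated cells. All induced libraries exceeded all untreated ones, and the third DMI library sat among the quercetin libraries. Tbc1d4 rose 3.48-fold with DMI (SE 0.28 on the log2 scale, adjusted p = 0.000939 by edgeR) and 2.69-fold with luteolin (1.43, SE 0.27, adjusted p = 0.00452 by edgeR) over untreated cells. With quercetin it stood at 0.90 over untreated cells (adjusted p = 0.056 by edgeR), which passed in 10 of 19 alternatives, among them leaving out DMI replicate 2, DMI replicate 3 or quercetin replicate 3 (adjusted p at most 0.04999). Quercetin over DMI was -0.90 (95% interval -1.47 to -0.32, adjusted p = 0.103 by edgeR), and without DMI replicate 3 it passed (log2 fold change -1.20, adjusted p = 0.00153 by edgeR), as it did in the same other fits as Sort1.

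**Figure D4:**
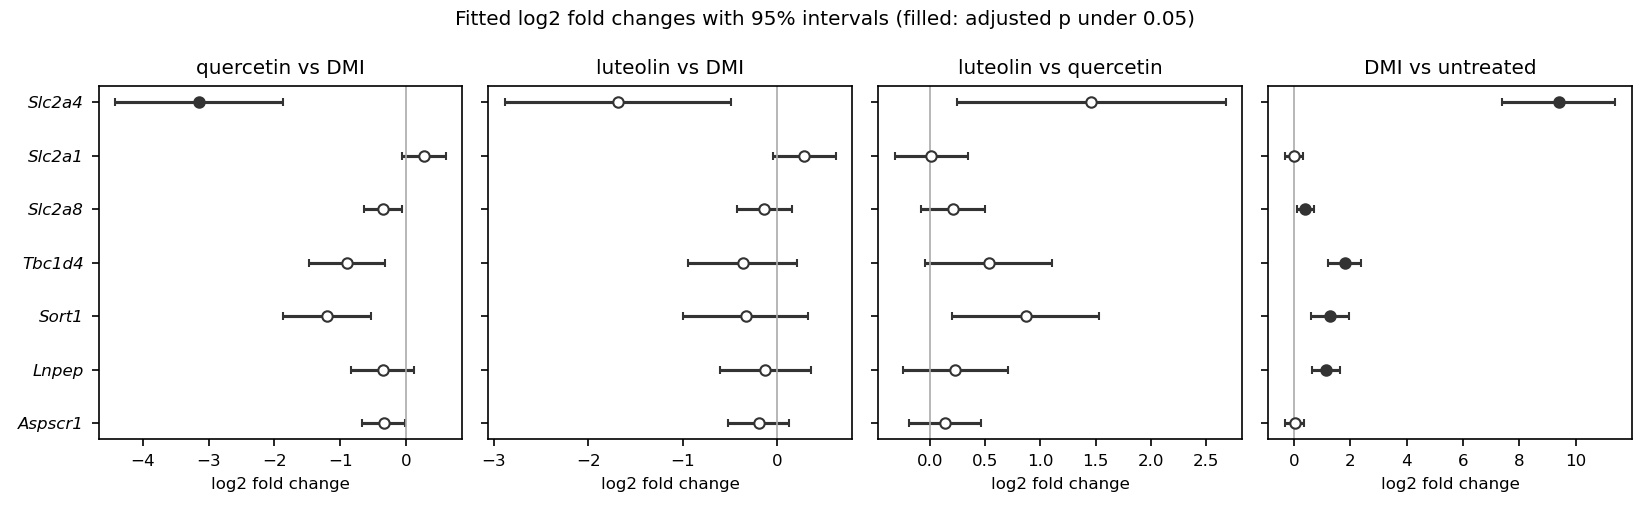
Fitted log2 fold change of each tested member with its 95% interval, in 4 comparisons (first-named group over second); filled points have an adjusted p under 0.05 by edgeR. The only filled point against DMI is Slc2a4 with quercetin at -3.15, while Slc2a4, Slc2a8, Tbc1d4, Sort1 and Lnpep are filled for DMI against untreated.

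By comparison, DMI over untreated called 5 of the 7 tested members, all higher, where 27.1% of all genes tested were called, 14.7% higher and 12.4% lower. Luteolin over untreated called 4 members, all higher (Slc2a4, Tbc1d4, Lnpep and Sort1), with 19.3% of all genes called, 10.5% higher and 8.74% lower. Quercetin over untreated called 2, Slc2a4 and Lnpep, both higher, with 9.45% of all genes called, 4.79% higher and 4.66% lower. The 3 comparisons share the untreated libraries.

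Quercetin over DMI called 1 member, Slc2a4, lower, where 1.01% of all genes were called, 0.162% higher and 0.848% lower. Without DMI replicate 3 the calls were 4, adding Sort1, Tbc1d4 and Slc2a8, and 17.4% of all genes were called. Luteolin over DMI called 0 members at 0.0202% of all genes, and at 0.168% with the replicate number as a block it again called 0. Slc2a4 was the only member with an unadjusted p under 0.05 without the block, as part of 904 genes under 0.05. DESeq2 called 0 members and 48 genes. Luteolin over quercetin called 0 members and 0% of all genes by edgeR. There Slc2a4 and Sort1 had unadjusted p of 0.0224 and 0.0151, as part of 1327 genes under 0.05, and DESeq2 called 2 genes, neither a member.

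Leaving out library 3 of the quercetin, luteolin and DMI groups, a choice made with earlier results of these data known, kept 2 libraries in each of them and raised the number of genes called in every comparison. DMI over untreated then called 5 members at 52.8% of all genes, luteolin over untreated 5 at 44.9% and quercetin over untreated 5 at 40.4%, each of them higher. Quercetin over DMI then called 6 members at 33.4% of all genes: Slc2a4 (log2 fold change -3.20), Sort1 (-1.26), Tbc1d4 (-1.13), Lnpep (-0.74) and Slc2a8 (-0.41) lower, and Slc2a1 (0.35) higher. Luteolin over DMI called 3 at 10.4% (Slc2a4 at -1.78, Tbc1d4 at -0.49 and Sort1 at -0.37), and luteolin over quercetin called 4 at 13.8% (Slc2a4 at 1.42, Sort1 at 0.88, Tbc1d4 at 0.64 and Lnpep at 0.60).

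The median log2 fold change of the 7 tested members was 1.14 for DMI over untreated, -0.20 for luteolin over DMI and -0.35 for quercetin over DMI, beside -0.04, -0.02 and 0.02 over all genes. Profiles over the 12 libraries were scored by the root mean square difference of centred log2 CPM. The smallest values between members were for Aspscr1 and Slc2a8 (0.253), Lnpep and Tbc1d4 (0.315) and Slc2a1 and Slc2a8 (0.32). For Slc2a4 the smallest was 2.73, with Tbc1d4. This score is not scaled to a gene's spread, so a small value between genes that moved little does not show a shared course. The SD of log2 CPM was 0.216 for Slc2a1, 0.206 for Slc2a8 and 0.22 for Aspscr1, against 3.54 for Slc2a4. Over the 10190 protein-coding genes with a mean of 5 CPM or more, those most like Slc2a4 were G0s2 (0.456), which encodes an inhibitor of the lipase Atgl, Tmem182 (0.488), Fam83a (0.489), the potassium channel gene Kcnk3 (0.51) and Car3 (0.512), a carbonic anhydrase gene. G0s2 averaged 32.2 CPM with quercetin, 75.9 with luteolin, 201 with DMI and 0.385 in untreated cells. For the other members the closest were Ttc39c for Slc2a1, Rnf44 and Fbxw8 for Slc2a8, Ehd2 and Uqcrc2 for Tbc1d4, Mars2 and Gnptab for Lnpep, Xrcc3 and Srl for Sort1, and Fbxw4 and Rbck1 for Aspscr1, at 0.0719 to 0.134.

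Genes around the members were read from 5 lists. Of 38 other genes of Glut4 vesicle traffic and fusion, 37 were tested, and DMI over untreated called 5 higher and 2 lower, a smaller share than the 27.1% called over all genes (14.7% higher and 12.4% lower), with a list median of -0.06 beside -0.04 over all genes. Ralgapa2, a subunit of the GTPase-activating complex that acts on RalA, averaged 225 CPM with DMI and 30.7 in untreated cells (log2 fold change 2.88, adjusted p = 0.000369 by edgeR). Trarg1, a regulator of Glut4 trafficking, averaged 12.7 CPM with DMI and 1.23 in untreated cells (3.35, adjusted p = 0.00218 by edgeR). Stx16, Gopc and Stx6 rose less, by log2 fold changes of 0.59, 0.43 and 0.41, and are named after their values were seen, as all members of these lists are that the naming rule does not take. The vesicle cargo receptor gene Lrp1 fell (-0.87, adjusted p = 0.0252 by edgeR), as did the Rab GTPase gene Rab31 (adjusted p = 0.0131 by edgeR).

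With luteolin over untreated cells Trarg1 (3.53), Ralgapa2 (2.60) and Stx16 (0.47) were called higher and Rab31 (-0.88) and Usp25 (-0.46) lower, and with quercetin Trarg1 (2.76) and Ralgapa2 (1.84) were called higher. Of all genes, 10.5% were called higher and 8.74% lower with luteolin over untreated, and 4.79% and 4.66% with quercetin. Against DMI edgeR called 0 of the 37 tested genes with either compound. Over all genes it called 1.01% with quercetin and 0.0202% with luteolin. With quercetin 2 of the 37, Rab11a and Ralgapa2, had an unadjusted p under 0.05, beside 3159 of all 14855 genes. DESeq2 called 1 of the 37 with quercetin, Ralgapa2, beside 1002 over all genes. With luteolin both counts were 0, beside 904 and 48 over all genes. Several of these calls ended when any 1 of several libraries was left out. Lrp1 for DMI ended without DMI replicates 1 or 2 or any untreated replicate (adjusted p from 0.062 to 0.114), Rab31 for DMI without DMI replicates 1 or 2 or untreated replicate 3 (0.0527 to 0.0692), and Gopc without DMI replicates 1 or 2 or untreated replicates 1 or 3 (0.0665 to 0.132), by edgeR. Stx6 ended without DMI replicates 1 or 2, any luteolin replicate or untreated replicates 1 or 2, and with no low-count filter (adjusted p from 0.051 to 0.17 by edgeR). In the luteolin comparison Rab31 (adjusted p from 0.0518 to 0.129) and Usp25 (0.0568 to 0.154) ended without luteolin replicates 1 or 2 or any untreated replicate, both also with library totals only and Usp25 without DMI replicate 1 or luteolin replicate 3, with RLE scaling or with no low-count filter, and Stx16 without luteolin replicates 1 or 2 or untreated replicate 2 (0.052 to 0.0632), by edgeR. With quercetin Trarg1 ended without quercetin replicate 2 or untreated replicates 1 or 3 (adjusted p from 0.0581 to 0.0756 by edgeR).

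Of 16 insulin signalling genes, DMI over untreated called 6 higher and 0 lower (list median 0.17; all genes 14.7% higher and 12.4% lower), and 5 of those are named here. Pik3r1, the regulatory subunit of phosphoinositide 3-kinase, rose by a log2 fold change of 1.01 (adjusted p = 0.00157 by edgeR). The insulin receptor gene Insr (0.95), the receptor substrate genes Irs2 (1.15) and Irs1 (0.79) and the kinase gene Akt2 (0.68) were called as well. Of these 5, luteolin over untreated called Pik3r1, Insr, Irs1 and Irs2, and quercetin over untreated called 0 by edgeR, while Pik3r1 had an unadjusted p under 0.05 there and was called by DESeq2. Over the whole list luteolin called 5 of 16 higher and quercetin 1, beside 10.5% and 4.79% of all genes called higher. Irs1 and Akt2 for DMI ended without DMI replicates 1 or 2 or any untreated replicate (adjusted p from 0.0509 to 0.119 by edgeR). For luteolin Insr, Irs1 and Irs2 ended without luteolin replicates 1 or 2 or any untreated replicate, Irs1 also without DMI replicates 1 or 2 (adjusted p from 0.0501 to 0.149 by edgeR). Against DMI edgeR called 0 of the 16 with either compound, beside 1.01% of all genes with quercetin and 0.0202% with luteolin. With quercetin 7 had an unadjusted p under 0.05, beside 3159 of all 14855 genes. DESeq2 called 2 with quercetin, among them Akt2, beside 1002 over all genes. With luteolin both counts were 0, beside 904 and 48 over all genes. Akt1, 1 of the 2 most abundant, stood at a log2 fold change of 0.14 with quercetin and 0.19 with luteolin.

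Glucose that enters the cell is trapped by hexokinases. Hk2, the hexokinase of insulin-sensitive tissues, had 79.0, 63.3 and 42.6 CPM with quercetin, 112, 141 and 77.7 CPM with luteolin, 200.4, 222 and 89.0 CPM with DMI and 32.7, 30.4 and 35.3 CPM in untreated cells. It rose 5.19-fold with DMI over untreated cells (log2 fold change 2.38, adjusted p = 0.000574 by edgeR), and all quercetin libraries lay below all DMI libraries without a call by edgeR (DESeq2 called Hk2 lower with quercetin). Txnip, whose product promotes internalisation of Glut1, rose (0.67, adjusted p = 0.00638 by edgeR) and Hk1 fell (-0.42, adjusted p = 0.0438 by edgeR) with DMI over untreated cells. Over the whole list of glucose capture and transporter internalisation, 3 of 5 tested genes were called higher and 1 lower, beside the same 14.7% and 12.4% over all genes. The Hk1 call ended in 13 of 19 alternatives, among them leaving out DMI replicates 1 or 2, luteolin replicates 1 or 2, quercetin replicate 2 or any untreated replicate (adjusted p from 0.0506 to 0.178).

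Of 6 transcription factors tied to the Slc2a4 gene, 4 were called higher with DMI over untreated cells (list median 3.98), where 14.7% of all genes were called higher. Klf15, which encodes a Kruppel-like factor, had 7.31, 5.31 and 2.70 CPM with quercetin, 17.1, 19.9 and 4.86 CPM with luteolin, 53.0, 64.9 and 12.3 CPM with DMI, and 0, 0.119 and 0.121 CPM in untreated cells. Cebpa (log2 fold change 4.41, adjusted p = 0.000315), Nr1h3 (4.61, adjusted p = 0.00034), the LXR alpha gene, and Pparg (3.55, adjusted p = 0.000441) rose with DMI over untreated cells as well, by edgeR, while Mef2a and Mef2d were not called. The same 4 were called higher over untreated cells with either compound, where 10.5% of all genes were called higher with luteolin and 4.79% with quercetin. With quercetin the Pparg call (adjusted p up to 0.0614) and the Nr1h3 call (up to 0.0592) ended without quercetin replicate 2 or untreated replicates 1 or 2.

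Klf15 was the only gene of the 5 lists that edgeR called against DMI. With quercetin DESeq2 also called Nr1h3 and Pparg in this list, beside 1002 over all genes. The log2 fold change of Klf15 with quercetin was -3.08 (SE 0.62, 95% interval -4.41 to -1.74, adjusted p = 0.0484 by edgeR), beside -3.15 for Slc2a4. That call ended without DMI replicates 1 or 2, luteolin replicates 1 or 2, quercetin replicates 2 or 3 or any untreated replicate, with library totals only and with only the 6 libraries of the pair (adjusted p from 0.0518 to 0.219 by edgeR). The list's medians against DMI were -1.49 with quercetin and -0.60 with luteolin, beside 0.02 and -0.02 over all genes.

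The other sugar transporters of the Slc2a family were mostly low. Of 8, 4 were tested, and edgeR and DESeq2 each called 0 of them for DMI over untreated. There Slc2a6, Slc2a9 and Slc2a13 had an unadjusted p under 0.05, as did 5804 of all 14855 genes, and edgeR called 27.1% of all genes. Slc2a2, Slc2a5, Slc2a7 and Slc2a12 did not pass the low-count filter. Slc2a13, the myo-inositol transporter gene, had 9.39, 8.29 and 14.7 CPM with quercetin, 5.12, 6.84 and 10.1 CPM with luteolin, 6.35, 4.80 and 9.42 CPM with DMI and 3.92, 3.16 and 5.20 CPM in untreated cells. It rose with quercetin over untreated cells (log2 fold change 1.40, adjusted p = 0.022 by edgeR), a call that ended without untreated replicates 1 or 2 (adjusted p = 0.0925 and 0.103 by edgeR).

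**Figure D5:**
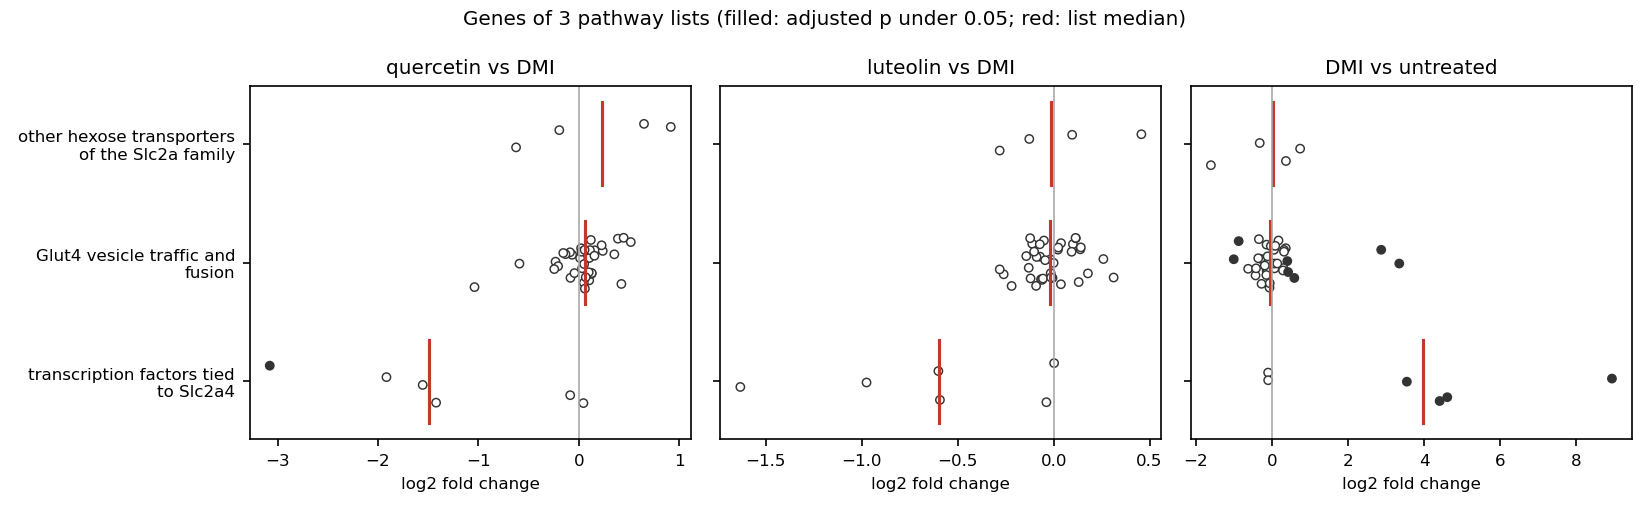
Log2 fold changes of the tested genes of 3 pathway lists in 3 comparisons (first-named group over second); each circle is a gene, filled at an adjusted p under 0.05 by edgeR, and the red line is the list median. For DMI against untreated, filled genes appear in 2 of the 3 lists, Glut4 vesicle traffic and the transcription factors. Against DMI the only filled circle is Klf15 with quercetin at -3.08.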

How the data were processed

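Bulk RNA of 12 libraries was measured, with groups and replicate numbers read from the sample titles. The deposited table holds raw gene counts, and the submitters' processing notes name featureCounts 1.5.0-p3 and CASAVA 1.8.2. No aligner or strand setting is given in the sources used here. FPKM values that the authors deposited in the same table served only as an alternative for the transporter shares. Deposited log2 fold changes and p-values are the authors' own comparisons. The notes name build mm9, but 98.3% of matched genes carry GENCODE M21 (GRCm38) positions, as all 8 members do, so GRCm38 is given. Spreadsheet dates in 27 symbols were restored by identifier, and 25496 genes had 0 counts throughout.

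Differences in counts were fitted with edgeR 4.0.16 (R 4.3.3), where filterByExpr kept 14855 genes, scaling was by TMM, and the quasi-likelihood fit had 1 term per group over all 12 libraries. P-values were adjusted by Benjamini-Hochberg over all genes within each of 6 comparisons, at a threshold of 0.05. The fit was checked on simulated counts. These held no shift shared by the third libraries, so the check does not cover that feature of the data. The exact permutation test runs over 20 splits. The floor of 3 reads for a count of 0 covers counting error only, and no counting error was computed for the shares. Every pair of replicates differed by more than sampling noise, with a chi-square of at least 2.78 per gene. Named genes are the members, up to 2 called genes a direction per list and comparison (otherwise the 2 most abundant), and the genes with the smallest profile difference. The members and gene lists were chosen with earlier results of these data known. Promoters of Slc2a4, Slc2a3 and Sort1 were not used here, and those of Slc2a8 and Aspscr1 are not shown. Some genes that the naming rule takes are not reported here.

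Same-numbered luteolin and DMI libraries deviated together (r = 0.261, 0.337 and 0.59), each over 0.1, a pairing that comes from the data and not from the labels, and no other pair of groups did so in all 3 numbers. Alternatives were RLE scaling, library totals, no low-count filter, DESeq2 1.42.0, other marker summaries, the replicate block, fits to the 6 libraries of a pair alone, and leaving out libraries.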

Additional observations from a re-analysis of the deposited data

How the results depend on the processing

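Leaving out library 3 of the quercetin, luteolin and DMI groups, the genes called numbered 7970 for DMI over untreated, 6786 for luteolin over untreated, 6108 for quercetin over untreated, 5049 for quercetin over DMI, 1566 for luteolin over DMI and 2081 for luteolin over quercetin, and the members called 5 for quercetin over untreated, 6 for quercetin over DMI, 3 for luteolin over DMI and 4 for luteolin over quercetin. With DESeq2 the genes called were 48 for luteolin over DMI, 2 for luteolin over quercetin, 1002 for quercetin over DMI and 2174 for quercetin over untreated, and the members 3 for quercetin over DMI. With no low-count filter they were 363, 450, 1737 and 2357 genes in the same order, and 1 member for luteolin over DMI, 2 for luteolin over quercetin and 3 for quercetin over DMI. With only the 6 libraries of the pair 0 genes were called for luteolin over DMI and 0 genes and 0 members for quercetin over DMI, and 5939 genes for luteolin over untreated. With library totals only, 59 genes were called for quercetin over DMI.

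Leaving out 1 library at a time, the genes called ranged from 1865 to 5569 for DMI over untreated, 1181 to 4499 for luteolin over untreated, 458 to 3286 for quercetin over untreated, 0 to 2646 for quercetin over DMI, 0 to 259 for luteolin over DMI and 0 to 10 for luteolin over quercetin. The members called ranged from 0 to 4 for quercetin over DMI, 0 to 1 for luteolin over DMI and 1 to 3 for quercetin over untreated.

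In the replicate block fit (only luteolin and DMI met the rule for pairing) the genes called were 25 for luteolin over DMI, 14 for luteolin over quercetin, 1395 for quercetin over DMI and 2115 for quercetin over untreated, and 3 members were called for quercetin over DMI: Slc2a4 (adjusted p = 0.000578), Sort1 (-1.16, adjusted p = 0.00321) and Tbc1d4 (-0.83, adjusted p = 0.0302), by edgeR. Under the block Slc2a4 for luteolin over DMI stood at -1.56 (adjusted p = 0.0864 by edgeR). For quercetin over DMI and over untreated 2 and 0 of the 3 quercetin libraries correlated best with their own number.

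The sign turned only for values near 0. Slc2a1 for luteolin over quercetin was -0.00496 under the block, -0.121 without the third libraries and -0.177 to 0.111 with 1 library left out. Slc2a1 for DMI over untreated was -0.0504 without the third libraries and -0.0900 to 0.108 with 1 left out. Aspscr1 for luteolin over quercetin was -0.0378 without the third libraries and -0.0434 to 0.241 with 1 left out. With 1 library left out, Aspscr1 for DMI over untreated ran from -0.0154 to 0.088, Lnpep for luteolin over DMI from -0.32 to 0.0295 and Sort1 for quercetin over untreated from -0.0792 to 0.371. Of 504 such fold changes 456 kept their side of the threshold, 32 lost a call, 7 gained one and 9 turned. The Slc2a4 share and the level relative to adipocyte markers kept their direction under every alternative run, and the called pathway genes, recomputed after their values were seen, did not turn. The cause of these movements was not tested.

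With 3 libraries a group the exact tests cannot pass 0.05, and at these depths Slc2a3 rests on 6 reads in all and untreated Slc2a4 on 8.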
